A study of Homo sapiens and Mus musculus with 8 samples.

Results

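Metalloproteases that cut the extracellular matrix or release proteins from the cell surface were examined together with their tissue inhibitors in UV-exposed and Orai1-transfected melanoma cells. The members were the rows of 5 deposited comparison tables whose symbol starts with Adam, Adamts, Adamtsl, Mmp or Timp followed by a number. They came to 43 symbols of 16386, of which 41 stood in the 3 mouse tables and 2 in both human tables. The mouse tables held 40 members among 14648 usable genes for UV at 2 weeks, 39 among 14821 for UV at 5 weeks and 37 among 15041 for the Orai1 clone. The study profiled 8 samples of 3 melanoma lines by RNA-seq, with 1 sample per group. In B16N, a mouse melanoma line, the samples were wild-type cells after 2 weeks of UV exposure, wild-type cells after 5 weeks of UV exposure, cells overexpressing Orai1, and untreated wild-type control cells. The Orai1 sample is a clone (O1C44) obtained by transfection with CFP-tagged wild-type Orai1, G418 selection and flow sorting, so overexpression and the choice of a clone cannot be told apart. The human melanoma lines WM983 and UACC257, both wild-type, were compared after 2 weeks of UV exposure with their own untreated controls. Their time label says week 2 while their titles say UV3, so the length of exposure is uncertain for these lines. Controls and the clone were labelled day 0, so that weeks in culture and UV cannot be told apart.

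ADAM proteins are membrane-anchored proteases with a disintegrin domain that release the outer part of receptors, adhesion molecules and growth factor precursors. ADAMTS proteins are secreted relatives with thrombospondin repeats, several of which cut the large proteoglycans of the matrix. Matrix metalloproteinases (MMPs) degrade collagens and other matrix proteins and are held in check by the TIMPs, and in melanoma these enzymes are known for their part in invasion and in the shedding of surface proteins.

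Each table holds the authors' comparison of a treated sample with the control of its line, without levels or counts. Depth was therefore unknown, the members cannot be ranked by level, and no difference had a replicate check. Mouse changes are given as log2 of treated over control, with a standard error (SE), obtained by dividing the deposited log2 value by its test statistic, and a 95% interval. Adjusted p-values are Benjamini-Hochberg values computed over all usable genes of a table from the deposited p-values, and a member was called at an adjusted p under 0.05. With a single library on each side, such a test is about the libraries, not about the treatments. The 3 mouse comparisons share their control, so a chance deviation of that control would move all 3 in one direction. In RNA from whole cultures, fewer cells of a type and less RNA per cell cannot be told apart. All 8 melanocytic markers had a row in each mouse table. A row was found for 1 or 2 of 7 fibroblast markers, 3 of 7 macrophage markers, 1 or 2 of 4 endothelial markers and at most 1 of 4 keratinocyte markers. Orai1 itself was not analysed here, so the label of the clone was not checked against its transgene.

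After 2 weeks of UV, 2 of 40 members rose (5%, against 3.13% of all genes) and 4 fell (10%, against 4.55%), so that 15% were called, against 7.67% of all genes in that table. After 5 weeks, 1 of 39 members rose (all genes 3.07%) and 4 fell (all genes 1.71%), so that 12.8% were called, against 4.78% of all genes. In the clone 1 of 37 members rose (all genes 10.3%) and 10 fell (all genes 11.6%), so that 29.7% were called, against 22% of all genes. Several of these calls rest on rows that carry exactly the values of another symbol. Among members with values of their own, 2 rose and 3 fell of 23 at 2 weeks, where 3.71% of all such genes rose and 5.28% fell (8.99% in all). At 5 weeks 1 rose and 3 fell of 22 members, beside 3.53% and 1.98% of all such genes (5.51% in all). In the clone 1 rose and 6 fell of 24 members, beside 12% and 13.9% of all such genes (25.9% in all). The members' share called in the clone, 29.2%, was thus near that of all genes. Their median log2 change was 0.072 for 2 weeks, 0.093 for 5 weeks and -0.25 for the clone, beside 0.020, 0.0069 and 0.033 for all genes with values of their own.

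**Figure D1:**
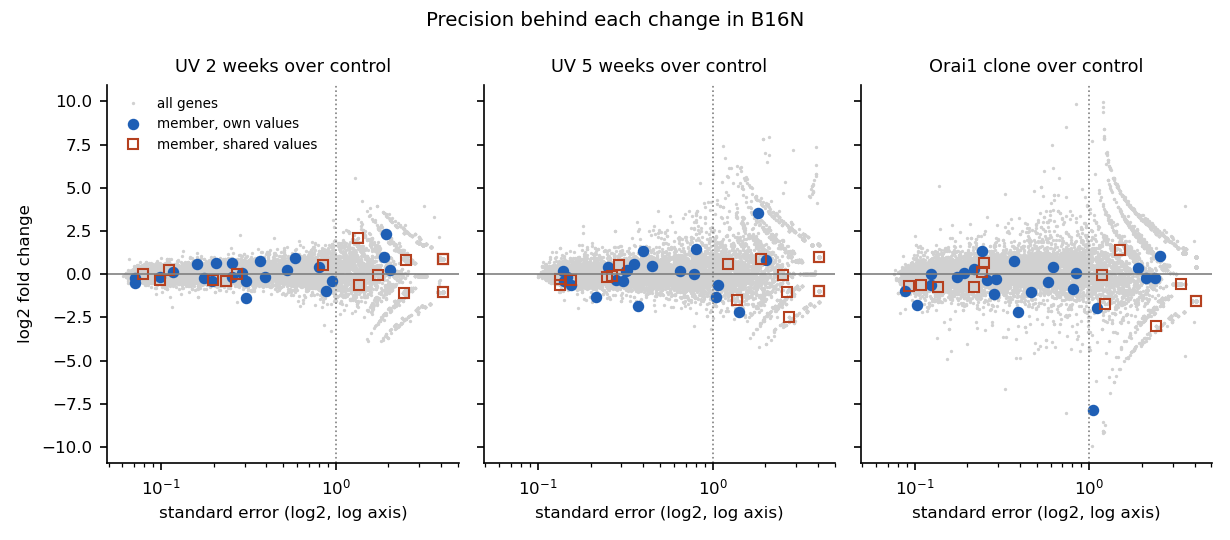
log2 fold change of treated over control (vertical axis) against its standard error on a log axis (horizontal axis) in the 3 B16N comparisons, with all genes in grey, members with their own values as blue circles and members that share their values with another symbol as open red squares. The dotted line marks an SE of 1, and the blue circle far below the others in the clone is Adam12 at -7.88.

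The plot of change against SE shows how unequal the precision was. At 2 weeks the SE of a member ran from 0.070 for Adamts1 to 4.08 for Adamts3, Adamts9, Adamts15, Adamts20 and Mmp17 in the authors' deposited table. An SE of 4.08 was the largest in each table. Of the 41 mouse members, 37 were in all 3 tables, 21 of them had values of their own throughout, and 17 of those had an SE of at most 1 in each. The description by role rests mainly on these 17, which are drawn in the plot of changes by gene.

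**Figure D2:**
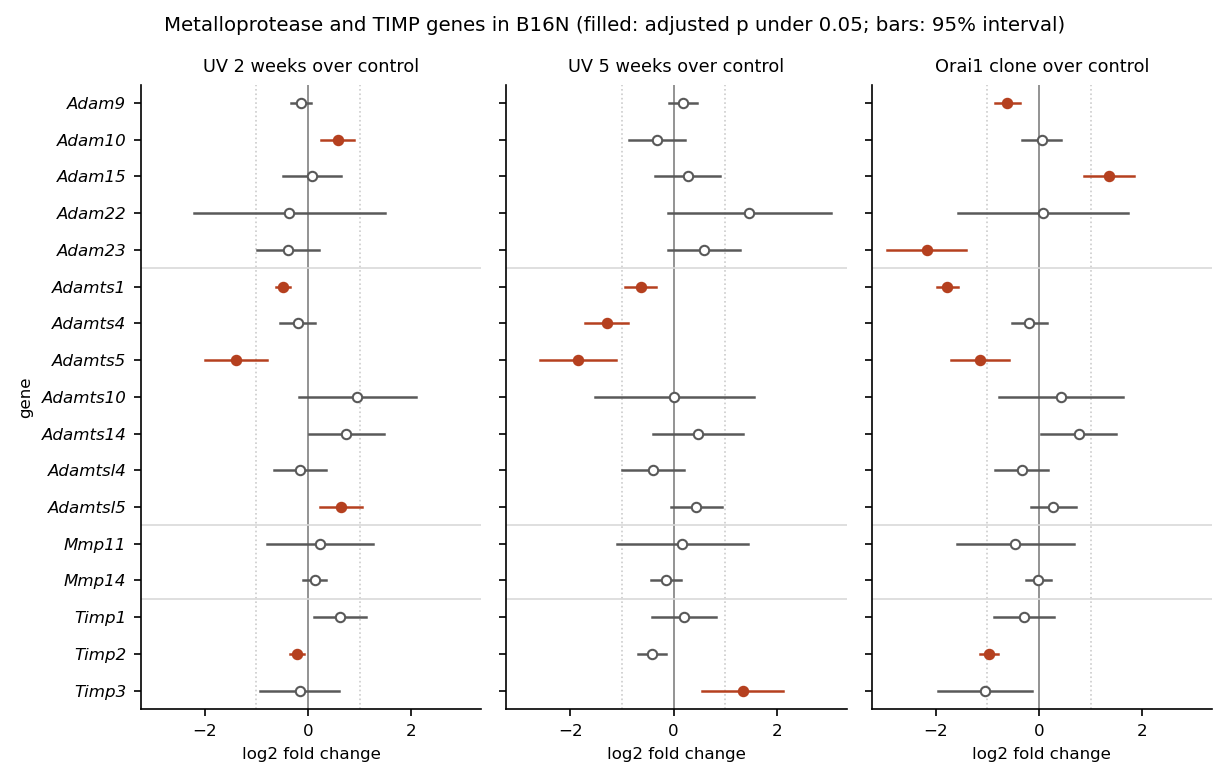
log2 fold change of treated over control with its 95% interval for the 17 members with values of their own and an SE of at most 1 in each of the 3 B16N comparisons (ADAM, ADAMTS and ADAMTS-like, MMP and TIMP genes from top to bottom). Filled red points had an adjusted p under 0.05, dotted lines mark a 2-fold change, and Adamts1 and Adamts5 lie left of 0 in each panel.

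Among the proteoglycan-cutting ADAMTS genes, Adamts1 and Adamts5 fell in each treated B16N sample and Adamts4 fell after 5 weeks of UV. Adamts5, the gene of a main aggrecanase of cartilage, had the largest of these changes under UV. It changed by -1.39 at 2 weeks (SE 0.30, 95% interval -1.99 to -0.79, adjusted p = 2.33e-04) according to the authors' deposited table. At 5 weeks its change was -1.85 (SE 0.38, interval -2.59 to -1.12, adjusted p = 8.32e-05) according to the authors' deposited table, a 3.62-fold lower value. In the clone it was -1.14 (SE 0.28, interval -1.70 to -0.59, adjusted p = 5.14e-04) according to the authors' deposited table. The 3 intervals of Adamts5 overlap one another and lie wholly below 0. They share a single control library, so they are not 3 independent observations.

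Adamts1, which cuts aggrecan and versican, had the smallest SEs of the proteoglycanase genes. In the authors' deposited tables it fell by 0.48 at 2 weeks (SE 0.070, adjusted p = 1.93e-09) and by 0.64 at 5 weeks (SE 0.15, adjusted p = 0.00188). In the clone it fell by 1.78, or 3.43-fold (SE 0.10, interval -1.98 to -1.58, adjusted p = 3.02e-63) according to the authors' deposited table. The interval in the clone lies entirely below those of both UV times. Adamts4, the other main aggrecanase gene, fell at 5 weeks by 1.30 (SE 0.21, interval -1.72 to -0.88, adjusted p = 3.31e-07) according to the authors' deposited table. Its changes were -0.20 at 2 weeks (interval -0.54 to 0.14) and -0.19 in the clone (interval -0.53 to 0.16) according to the authors' deposited tables, both within a 2-fold change in either direction. Of the 3 proteoglycanases with values of their own, 2 were thus lower at 2 weeks, 3 at 5 weeks and 2 in the clone, and none was higher. Of all genes with values of their own, 5.28%, 1.98% and 13.9% were lower in these comparisons. Their median changes were -0.48, -1.30 and -1.14 in the same order, beside the medians over all genes given above. Adamts9, Adamts15 and Adamts20, of the same group, shared their values with 33 to 699 other symbols and had SEs of 3.36 or 4.08.

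Of the TIMP inhibitors, Timp2 fell in the clone and Timp3 rose after 5 weeks of UV. Timp2, whose protein inhibits MMPs and also links MMP14 to the proform of MMP2, was lower in the clone by 0.97 (SE 0.088, interval -1.14 to -0.80, adjusted p = 4.06e-26) according to the authors' deposited table. At 2 weeks its change was -0.21 (SE 0.071, adjusted p = 0.0438) according to the authors' deposited table, a call that was lost (adjusted p = 0.0947) when the median change of precise rows was set to 0. At 5 weeks it stood at -0.41 (SE 0.14, adjusted p = 0.0656) according to the authors' deposited table and did not pass, but it passed among rows with an SE of at most 0.5 (adjusted p = 0.0440). The value in the clone was the only one of Timp2 near a 2-fold change.

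Timp3, whose protein binds to the matrix and inhibits ADAM17 and aggrecanases besides MMPs, rose after 5 weeks of UV by 1.34 (SE 0.40, interval 0.56 to 2.12, adjusted p = 0.0223) according to the authors' deposited table. This 2.53-fold rise was the only TIMP call upwards. At 2 weeks its change was -0.16 (interval -0.93 to 0.60) and in the clone -1.05 (interval -1.96 to -0.13, adjusted p = 0.0956) according to the authors' deposited tables, and neither passed. Timp1, a general MMP inhibitor gene, stood at 0.62 at 2 weeks (adjusted p = 0.133), 0.20 at 5 weeks and -0.29 in the clone in the authors' deposited tables, with SEs of 0.25 to 0.32. Timp4 had SEs of 1.93 at 2 weeks and 1.83 at 5 weeks in the authors' deposited tables, so its direction was not resolved, and in the clone it shared its values with 298 other symbols.

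Of the 8 ADAM genes with values of their own, 1 rose after 2 weeks of UV, none was called after 5 weeks and 4 were called in the clone, beside 8.99%, 5.51% and 25.9% of all genes with values of their own. Adam10, the sheddase of Notch receptors and many adhesion molecules, rose at 2 weeks by 0.57 (SE 0.16, interval 0.26 to 0.89, adjusted p = 0.00767) according to the authors' deposited table. It was at -0.32 at 5 weeks (interval -0.87 to 0.23) and 0.052 in the clone (interval -0.32 to 0.43) according to the authors' deposited tables, neither of them called.

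In the clone, 3 of these ADAM genes fell and 1 rose. Adam15, an integrin-binding member with protease activity, rose by 1.36 or 2.56-fold (SE 0.24, interval 0.88 to 1.83, adjusted p = 5.07e-07) according to the authors' deposited table. Adam23, which lacks an active protease site and binds LGI proteins at the cell surface, fell by 2.17 or 4.51-fold (SE 0.39, interval -2.94 to -1.41, adjusted p = 5.64e-07) according to the authors' deposited table. Adam9, a widely expressed sheddase, fell by 0.61 (SE 0.12, interval -0.85 to -0.37, adjusted p = 1.01e-05) according to the authors' deposited table. At both UV times the intervals of Adam9 and Adam15 lay within a 2-fold change.

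Adam12, also known as meltrin alpha and linked to cell fusion and growth factor release, had the largest fitted fall of any member. Its value in the clone was -7.88 (SE 1.05, adjusted p = 2.70e-12) according to the authors' deposited table. A fitted value of this size can come from a gene with hardly any reads in a library, and without counts it is not read as a fold change. At 2 weeks Adam12 stood at -0.38 (SE 0.20, adjusted p = 0.337) and at 5 weeks at -2.20 (SE 1.41, adjusted p = 0.583) according to the authors' deposited tables. Adam22, another member without protease activity, had intervals from -2.21 to 3.05 over the 3 comparisons and no call, and Adam1b and Adam21 had SEs between 0.81 and 2.05 and no call in the authors' deposited tables.

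No MMP gene was called in B16N, beside 7.67% of all genes at 2 weeks, 4.78% at 5 weeks and 22% in the clone. Only 1 gelatinase, 1 collagenase and 1 stromelysin gene had a row, and several MMP rows were shared with other symbols. With so few genes, the lack of calls is not read as a result about the MMPs. Mmp14, the membrane-type enzyme that activates the proform of MMP2 at the cell surface, was the most precisely measured MMP gene. Its changes were 0.13 at 2 weeks (interval -0.10 to 0.36), -0.15 at 5 weeks (interval -0.44 to 0.14) and -0.014 in the clone (interval -0.26 to 0.23) according to the authors' deposited tables. These intervals leave room for changes well under 2-fold only. Mmp2, a gelatinase gene, stood at 0.44, -0.63 and -1.97 in the same order, with SEs of 0.80, 1.07 and 1.10 in the authors' deposited tables. The direction of Mmp2 was not resolved at this precision. Mmp11, or stromelysin 3, stood at 0.24, 0.17 and -0.46 with SEs of 0.52 to 0.65 in the authors' deposited tables. Mmp1a, a collagenase gene, shared its values with another symbol and stood at -0.40, -0.11 and 0.11 (SEs 0.24 to 0.27) according to the authors' deposited tables. Mmp17, Mmp19, Mmp23, Mmp24 and Mmp28 had SEs of 1.34 or more wherever they were listed in the authors' deposited tables, and none was called.

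Of the remaining secreted members, Adamtsl5, an ADAMTS-like gene whose protein has no protease domain, rose at 2 weeks by 0.64 (SE 0.21, interval 0.24 to 1.05, adjusted p = 0.0289) according to the authors' deposited table. At 5 weeks it was at 0.44 and in the clone at 0.28, with intervals that include 0, in the authors' deposited tables. Adamtsl4, which encodes a fibrillin-binding protein of the same kind, lay between -0.39 and -0.16 in the 3 comparisons in the authors' deposited tables, with each interval inside a 2-fold change. Adamts14, an enzyme gene for collagen maturation, stood at 0.74, 0.48 and 0.77 with SEs of 0.37 to 0.45, and Adamts10 at 0.96, 0.017 and 0.43 with SEs of 0.58 to 0.78, in the authors' deposited tables. Neither was called in any comparison.

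The treated B16N samples were then set against one another with a normal test of the difference of their changes. In such a difference a control value common to both cancels. The differences, with their SEs, intervals and adjusted p-values, were computed here from the authors' deposited values. Of 22 members with values of their own at both UV times, 1 differed between 5 and 2 weeks, against 3.75% of all genes. It was Adamts4, with a difference of -1.10 (SE 0.28, interval -1.64 to -0.56, adjusted p = 0.00455) computed from the authors' deposited tables. The difference had an interval of 0.40 to 2.60 for Timp3 (adjusted p = 0.126) and of -1.52 to -0.26 for Adam10 (adjusted p = 0.103) from the authors' deposited tables, and neither passed. The calls of Timp3 at 5 weeks and of Adam10 at 2 weeks are therefore not shown to belong to a single time.

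Between the clone and 5 weeks of UV, 7 of 21 members differed, against 6.18% of all genes. Timp3 differed by -2.39 (clone minus 5 weeks, SE 0.61, adjusted p = 0.00339) and Timp2 by -0.56 (SE 0.17, adjusted p = 0.0187), computed from the authors' deposited tables. Adamts4 was higher in the clone, with a difference of 1.11 (SE 0.28, adjusted p = 0.00219), while Adamts1 was lower, with -1.14 (SE 0.19, adjusted p = 1.03e-07), computed from the authors' deposited tables. The proteoglycanase genes thus differed in both directions in this contrast. Adam23 differed by -2.76 (adjusted p = 1.35e-05), Adam9 by -0.80 (adjusted p = 7.87e-04) and Adam12 by -5.67 (SE 1.76, adjusted p = 0.0250), computed from the authors' deposited tables.

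Against 2 weeks of UV, 6 of 22 members differed in the clone, against 13.2% of all genes. Adamts1 differed by -1.30 (adjusted p = 1.29e-22), Timp2 by -0.76 (adjusted p = 1.30e-09), Adam23 by -1.78 (adjusted p = 0.00447) and Adam9 by -0.48 (adjusted p = 0.0235), computed from the authors' deposited tables. Adam15 was higher by 1.28 (adjusted p = 0.00795), and Adam12 was lower (difference -7.50, SE 1.07), computed from the authors' deposited tables. Adamts5 did not pass in any of the 3 contrasts, with an interval of -0.57 to 1.06 for clone against 2 weeks, computed from the authors' deposited tables.

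**Figure D3:**
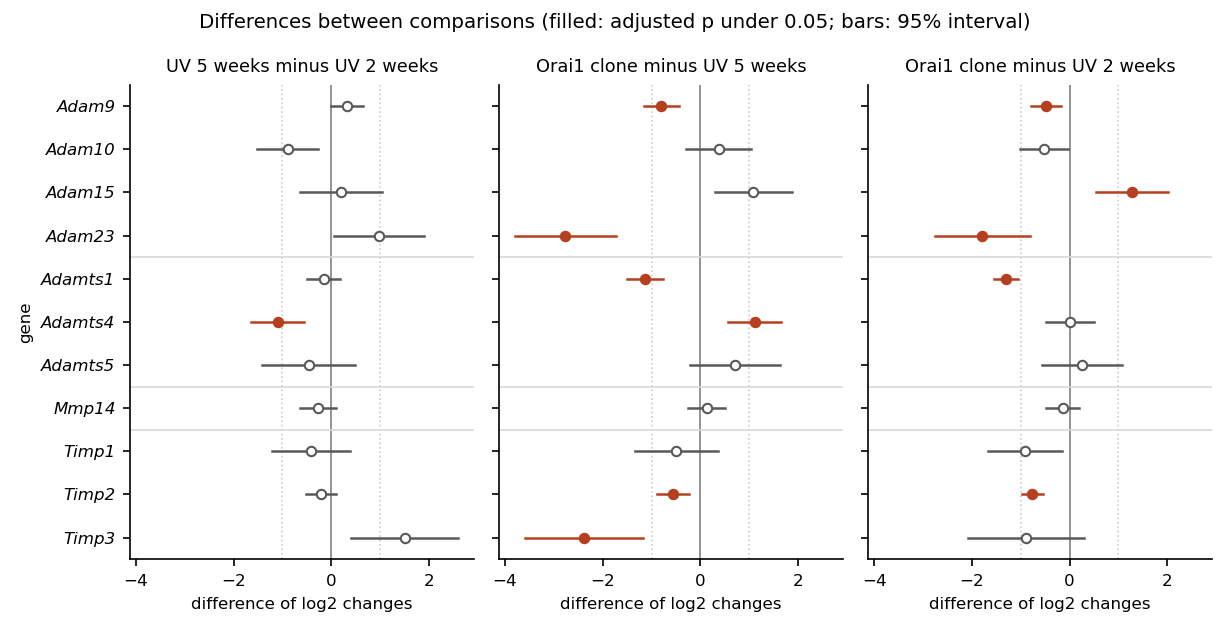
Difference of 2 log2 changes with its 95% interval for 11 members in the 3 contrasts between treated B16N samples (5 weeks minus 2 weeks of UV, clone minus 5 weeks, clone minus 2 weeks). The 11 were picked by hand, and Adam12, called in both contrasts with the clone, is not drawn. Filled red points had an adjusted p under 0.05, and Adamts4 changes side between the first panel (-1.10) and the second (1.11).

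In total 20 members shared their values exactly with another symbol in at least 1 table. For 9 of them the partner was a single symbol and the same in all 3 tables. Adam17 carried the values of Kif23, a mitotic kinesin gene, Adam29 those of the splicing gene Luc7l3, Adamts19 those of Cdca4 and Adamts7 those of Snx25. Adam33 was matched with Arsb, Adam19 with Tmem79, Adam4 with Vps50 and Mmp24 with T2. In RefSeq (GRCh38.p14) 7 of these 9 pairs have human genes of these symbols, with MMP1 taken for Mmp1a, and in all 7 the genes are on different chromosomes. Over all genes, 814 pairs of symbols had identical values in all 3 mouse tables, and rows that share values made up 28.9% to 29.3% of each table.

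The tables do not show to which symbol such a row belongs. Their calls are in the counts over all members above and not in those over values of their own. The row of Adam17 and Kif23 was lower at 2 weeks (-0.33, adjusted p = 0.0124) and in the clone (-0.60, adjusted p = 7.34e-07), and not called at 5 weeks (-0.25, adjusted p = 0.417), in the authors' deposited tables. That of Adamts19 and Cdca4 was lower at 5 weeks (-0.64, adjusted p = 1.55e-04) and in the clone (-0.67, adjusted p = 4.11e-11) according to the authors' deposited tables. In the clone the rows of Adam29 with Luc7l3 (-0.73, adjusted p = 1.31e-06) and of Adamts7 with Snx25 (-0.73, adjusted p = 0.00596) were lower in the authors' deposited table. The remaining members of these 9 pairs, Adam4, Adam19, Adam33, Mmp1a and Mmp24, had no call. The 11 members that shared values in other ways had SEs of 1.75 or more wherever they did so, and no call.

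Lists of related genes covered those that activate, carry or oppose these enzymes, 14 of 16 of which had a row. Among activators and cofactors with values of their own, 1 of 10 was higher and 1 lower at 2 weeks, 1 higher and 1 lower at 5 weeks, and 3 lower in the clone. The share of all such genes called was 8.99%, 5.51% and 25.9%, so that the share of this list in the clone was near the background. Tspan10, a tetraspanin gene of the group that guides ADAM10 to the surface, rose by 0.61 at 2 weeks (adjusted p = 9.46e-06) and by 1.09 at 5 weeks (adjusted p = 1.10e-04) according to the authors' deposited tables. Tspan14 of the same group fell by 0.63 at 5 weeks (adjusted p = 4.54e-04) and by 0.28 in the clone (adjusted p = 0.0144) according to the authors' deposited tables. Tspan15, a further member of the group, fell by 0.96 in the clone (adjusted p = 3.67e-06) according to the authors' deposited table. The tetraspanin partners of ADAM10 thus changed in both directions.

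Furin, the gene of a convertase that removes the propeptides of many ADAM and membrane-type MMP proteins, fell by 0.44 at 2 weeks (adjusted p = 0.0262) according to the authors' deposited table. Rhbdf2, whose product iRhom2 carries ADAM17 to the surface, fell by 0.57 in the clone (adjusted p = 4.01e-04) according to the authors' deposited table. Reck, a membrane-anchored MMP inhibitor gene, was not called, with SEs of 0.67 to 0.88 in the authors' deposited tables. Of the plasmin system, in which plasmin activates several MMPs, Plaur, the urokinase receptor gene, rose by 0.68 in the clone (adjusted p = 0.0157) according to the authors' deposited table. It was 1 of 3 genes of that list with values of their own in the clone, where 25.9% of all such genes were called, and none of 2 was called at either UV time. Rows shared with another symbol were also called. The row of Bsg, the gene of an MMP inducer, was higher at 2 weeks (0.61) and in the clone (0.52), and that of Lrp1, a receptor gene that clears proteases, at 5 weeks (1.23) and in the clone (1.08), by the authors' deposited tables. In the clone the row of the iRhom1 gene Rhbdf1 (0.96) was higher and that of Serpine2, a protease inhibitor gene, was lower (fitted value -4.48, SE 1.74), by the authors' deposited table.

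The matrix substrates include the link protein gene Hapln1 and the brevican gene Bcan. Hapln1, whose protein ties proteoglycans to hyaluronan, was at -2.99 in the clone (SE 0.79, adjusted p = 0.00134) according to the authors' deposited table, and at -3.29 at 2 weeks (adjusted p = 0.00855) and -3.16 at 5 weeks (adjusted p = 0.0320). It was thus lower in each treated sample against the same control, with wide intervals. Bcan fell in the clone by 4.18 (SE 0.63, adjusted p = 1.17e-09) according to the authors' deposited table, and stood at -0.033 and 0.80 at 2 and 5 weeks without a call. Some related genes carried the values of another symbol, as members did. The row of the fibronectin gene Fn1 was lower at 2 weeks (-0.36), at 5 weeks (-1.02) and in the clone (-3.19), according to the authors' deposited tables. Hapln3, a relative of Hapln1, shared a row that was higher at 2 weeks (1.29, adjusted p = 0.0220, by the authors' deposited table). With such rows included, 1 of 7 matrix substrates was higher and 2 were lower at 2 weeks, 2 of 8 were lower at 5 weeks, and 3 of 7 were lower in the clone, beside 4.55%, 1.71% and 11.6% of all genes called lower and 3.13% called higher at 2 weeks.

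Of the genes for proteins shed by ADAM10 or ADAM17 with values of their own, 3 of 10 were lower after UV for 2 weeks and 2 of 11 after UV for 5 weeks. In the clone 5 of 10 were lower and 1 was higher. Over all genes with values of their own, 5.28% were lower for 2 weeks, 1.98% for 5 weeks and 13.9% for the clone, where 12% were higher. The receptor tyrosine kinase gene Axl fell by 2.75 in the clone (adjusted p = 6.51e-74), and the syndecan gene Sdc4 by 0.59 (adjusted p = 9.67e-08), in the authors' deposited table. Mcam, a melanoma adhesion molecule gene, fell by 1.61 (adjusted p = 1.95e-27) and the growth factor gene Tgfa by 2.41 (adjusted p = 0.00616) in the clone in the authors' deposited table. Notch1 rose there by 3.11 (SE 0.58, adjusted p = 1.74e-06) according to the authors' deposited table. At 2 weeks Axl, Sdc4 and Cd44 fell by 0.37, 0.32 and 0.21, and at 5 weeks Axl and Sdc4 by 1.48 and 0.47, in the authors' deposited tables. Shared rows of the adhesion genes L1cam (4.59, clone) and Alcam (-0.55 at 5 weeks, -0.46 in the clone) were called too, by the authors' deposited tables. The shared row of the cadherin gene Cdh2 was lower at 2 weeks (-0.33), at 5 weeks (-0.49) and in the clone (-1.16), by the authors' deposited tables. The median change of the shed substrates was -0.023 under UV at 2 weeks, -0.35 under UV at 5 weeks and -0.44 for the clone, beside 0.020, 0.0069 and 0.033 for all genes with values of their own.

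**Figure D4:**
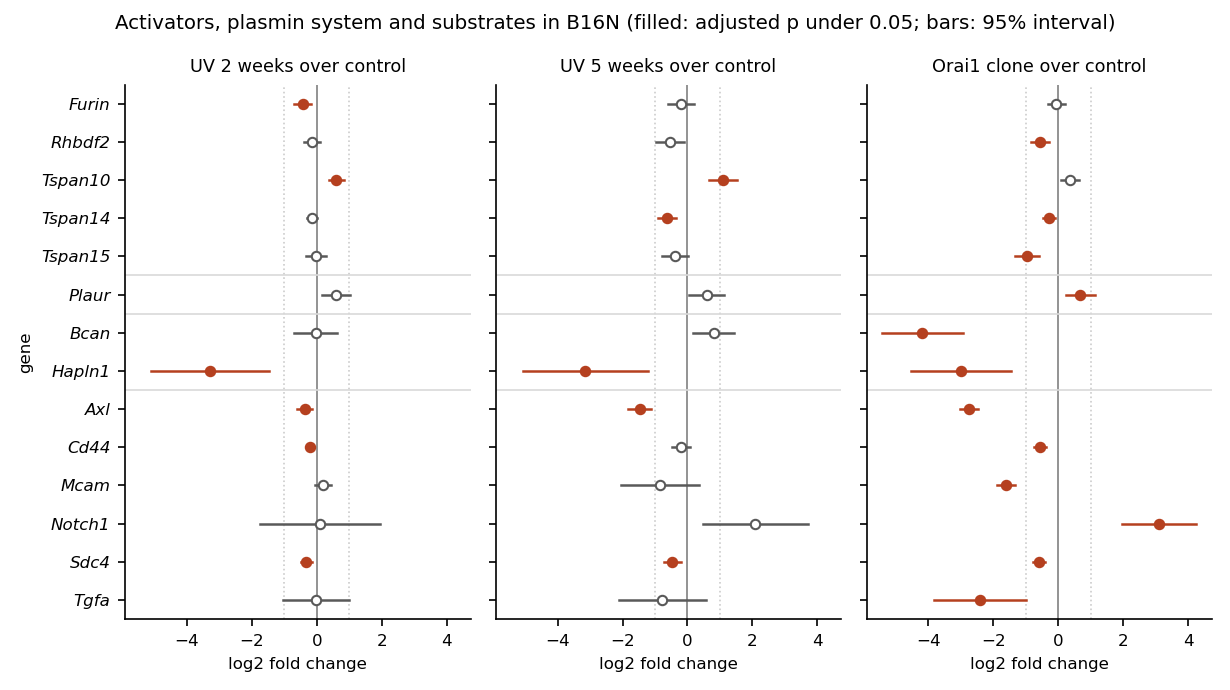
log2 fold change of treated over control with its 95% interval in the 3 B16N comparisons for the activators and cofactors, the plasmin system, matrix substrates and shed substrates (from top to bottom) that had values of their own, an SE of at most 1 and at least 1 call. Filled red points had an adjusted p under 0.05, dotted lines mark a 2-fold change, and Notch1 at 3.11 and Bcan at -4.18 are the outermost points of the clone.

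Of the 8 melanocytic markers, 5 rose at 2 weeks, 6 rose and 1 fell at 5 weeks, and 3 rose and 1 fell in the clone. Of all genes, 3.13% rose at 2 weeks, 3.07% rose and 1.71% fell at 5 weeks, and 10.3% rose and 11.6% fell in the clone. The 1 that fell at 5 weeks, Sox10, carries the values of another symbol. The 1 that fell in the clone was Dct (-0.61), with values of its own. The part of these marker changes in the members' changes was not tested. Lyz2, a myeloid marker gene, was higher at 5 weeks (3.47, SE 0.70, adjusted p = 6.84e-05) and in the clone (2.78, SE 0.64, adjusted p = 1.77e-04), in the authors' deposited tables. At 2 weeks it was not called (0.38, SE 0.94, by the authors' deposited table). No other macrophage marker was called. It was the only macrophage marker with values of its own, and its part in the changes at 5 weeks and in the clone was not tested.

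Both human tables listed the same 420 symbols, and their members were MMP15 and ADAM1A. MMP15 encodes a membrane-type MMP (MT2-MMP) and lies on human chromosome 16, while ADAM1A on chromosome 12 is annotated as a pseudogene in RefSeq. The deposited log2 values are given with their sign as deposited, since no check of their direction was possible. MMP15 had 1.16 in WM983 (test statistic 3.55, p = 5e-05 in the authors' deposited table) and -0.090 in UACC257 (test statistic -0.33, p = 0.567 in the authors' deposited table). ADAM1A had -1.31 in WM983 (p = 5e-05) and -0.29 in UACC257 (p = 0.197) according to the authors' deposited tables. In WM983, 99.5% of the 420 rows had a p under 0.05 and 419 had a change of at least 2-fold, against 10% and 1 row in UACC257. The smallest p in UACC257 was 0.02565 in the authors' deposited table. As nearly every listed gene passed in WM983, the p-values of MMP15 and ADAM1A there say nothing particular about them, and the difference between the lines was not tested.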

How the data were processed

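RNA-seq comparisons of 8 samples (1 per group) were used as the authors deposited them. Per the file headers, a row gives a symbol with its log2 fold change, test statistic and p-value. The log2 fold changes and the p-values are the authors' deposited values, and the test statistic was used as a score as deposited. The submitters' processing notes name GRCm38, also for the human samples. The aligner, the counting and the test are not given in the sources used here. All 1357 genes with a row in a single mouse table had negative deposited log2 values. Since the control is common to the tables, a gene listed in 1 table was detected through its treated sample, so the deposited sign has the control on top and was turned. Human signs were left as deposited. In the mouse tables the deposited p-value equals the two-sided normal p of the statistic within 5.00e-08, so the SE is log2 fold change over statistic. Rows without a symbol (1 per mouse table) or without a p-value (3 in the clone's) were left out.

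Calls used a Benjamini-Hochberg adjusted p under 0.05 over each table, with no fold minimum. Differences were tested with a normal test, both SEs added in squares, over genes whose values no other symbol shared in either table. The control's error enters both SEs. The procedure was tested on simulated data. Members and lists were chosen with earlier results of these data known. Named genes were members called anywhere, all listed TIMPs, named MMP groups, Adam10, Adam17 and up to 4 called genes per related list, beside members given by range. Genes outside the rule, such as Adam22, Adamtsl4, Reck and Mcam, were named after their values were seen. A related gene and the partner symbol of Mmp1a are not reported here. Mouse sequences were not used here. Depth is unknown, so no interval that needs it is given. Python 3.11.15, numpy 2.4.6, pandas 2.3.3 and scipy 1.17.1 were used.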

Additional observations from a re-analysis of the deposited data

Results flagged for a closer look

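The change of Adamts4 differed between the UV times by -1.10 on the log2 scale (5 weeks minus 2 weeks, SE 0.28, adjusted p = 0.00455), with -1.30 at 5 weeks and -0.20 at 2 weeks in the authors' deposited tables. MMP15 had deposited log2 values of opposite sign in the human lines, 1.16 in WM983 and -0.090 in UACC257 in the authors' deposited tables, and this difference was not tested. The sign in UACC257 was not resolved (test statistic -0.33 in the authors' deposited table). Of the 420 listed genes, 419 had a change of at least 2-fold in WM983, against 1 in UACC257. How the genes came to be listed is not stated. If they were listed for their change in WM983, such a gap follows from the listing and says nothing particular about MMP15.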

How the results depend on the processing

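The number of members called at 2 weeks was 6, and it was 3 with an adjusted p under 0.01, 2 with a change of at least 1.5-fold and 1 with at least 2-fold. At 5 weeks it was 5, against 3 with at least 2-fold and 9 with a 2-fold change and no p-value. In the clone it was 11, against 5 with at least 2-fold and 7 with symbols of shared values left out. The shares of all genes under the stricter p and the fold rules are not given here, so these counts describe the members' calls alone. The 9 at 5 weeks included imprecise rows such as those of Timp4 (SE 1.83) and Adamts17 (SE 2.75). Members that differed between 5 and 2 weeks numbered 1, and 3 with symbols of shared values included, namely Adam29 and Adamts19 besides Adamts4. In the other alternatives, which included SE limits of 1 and 0.5 and setting the median change of rows with an SE of at most 0.3 to 0, these 4 counts and those of the 2 contrasts with the clone stayed within 1.5 times. Of 104 alternatives for single called members, 103 kept direction and call, none reversed, and 1 lost its call, Timp2 at 2 weeks under that centring. Timp2 at 5 weeks gained a call with an SE limit of 0.5, Adam33 in the clone gained one under the centring and both SE limits, and Adam12 in the clone was left out by both SE limits. No paired analysis was possible because each group had 1 sample, and for the same reason no replicate could be left out. Without counts, depth sets no limit that could be given, and the SE of each change stands in its place.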
